A study of Ovis aries and Mus musculus with 20 samples.

Results

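The chromatin compartments of greater omentum fat (GOM) were compared with those of mesenteric adipose (MAD) in sheep. The data were 6 *in situ* Hi-C libraries, 3 of GOM and 3 of MAD, chosen from the 20 samples of the series by their labels. Both depots came from the same 3 Small-tail Han sheep, adults of 2 years with no treatment, and a library of retroperitoneal adipose (RAD) from each animal is given beside them. The sheep number in a label was taken as the animal, so that each GOM library has a MAD library as its partner. In the study, tissue was crosslinked, nuclei were taken from the adipocyte layer after lysis, and their chromatin was cut with MboI and ligated. A library therefore pools the nuclei of all cells in that layer, and a different mix of cells and a different folding within cells cannot be told apart in these data. The depot labels were not checked against marker genes, because no gene of the sheep build was placed here.

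Hi-C measures how often pairs of loci lie together in the nucleus. On a scale of megabases, chromosomes divide into A regions, which are rich in genes, open and mostly transcribed, and B regions, which are poor in genes, compact and often attached to the nuclear lamina. Regions of a kind contact each other, and a locus can move between the kinds when a cell takes on another identity. The greater omentum hangs as an apron from the stomach, mesenteric fat follows the vessels of the gut, and retroperitoneal fat lies behind the abdominal cavity. All are visceral depots. The comparison asked how far the compartments of GOM and MAD, both visceral fat of the same animal, part from each other.

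The measure was the A-B index, a signed score given per bin of 20 kb. It is the difference between how strongly a bin contacts the A parts and how strongly it contacts the B parts of the same chromosome, so values above 0 mark A and values below 0 mark B. It has no physical unit, and no read depth comes with it. The 132797 bins of the 26 autosomes were averaged into 26549 full windows of 100 kb, and 21 partial windows were left out. Over these windows, the mean of GOM and the mean of MAD had the same sign in 25181 (94.8%), and the Pearson's *r* of the means was 0.983. This is a correlation across windows, which share libraries and are not independent. The 2 depots thus had nearly the same map, and the differences below are departures from it.

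Each library had close to as many bins in A as in B. The percentage of bins in A was 48.8, 49.8 and 48.3% in GOM replicates 1 to 3, against 49.9, 50.2 and 50.2% in MAD replicates 1 to 3. All GOM libraries were below all MAD libraries, and the difference, GOM minus MAD, was -1.08 ± 0.77 percentage points (SD of the differences, *n* = 3 animals). The mean index over bins was -0.24, -0.0844 and -0.229 in GOM, against -0.0312, -0.0125 and -0.066 in MAD, again with no overlap. For both measures the exact permutation test gave *p* = 0.25 by flipping signs within animals and *p* = 0.1 for 3 libraries against 3, the smallest values that such tests can reach with these numbers. Without chromosome 14 the difference in bins in A was -1.03 ± 0.771 percentage points.

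The contrast between A and B had no such order. The SD of the index over bins was 3.39, 3.43 and 3.19 in GOM, against 3.3, 3.23 and 3.44 in MAD, and it was higher in GOM in sheep 1 and 2 and lower in sheep 3 (two-sided exact permutation *p* = 1 in both tests). The number of compartment edges, that is sign changes between neighbouring windows, was 2367, 2230 and 2263 in GOM, against 2392, 2320 and 2207 in MAD. The groups overlapped and the difference of -19.7 ± 73.1 edges was smaller than its spread (two-sided exact permutation *p* = 0.75 within animals and 0.8 between libraries).

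**Figure D1:**
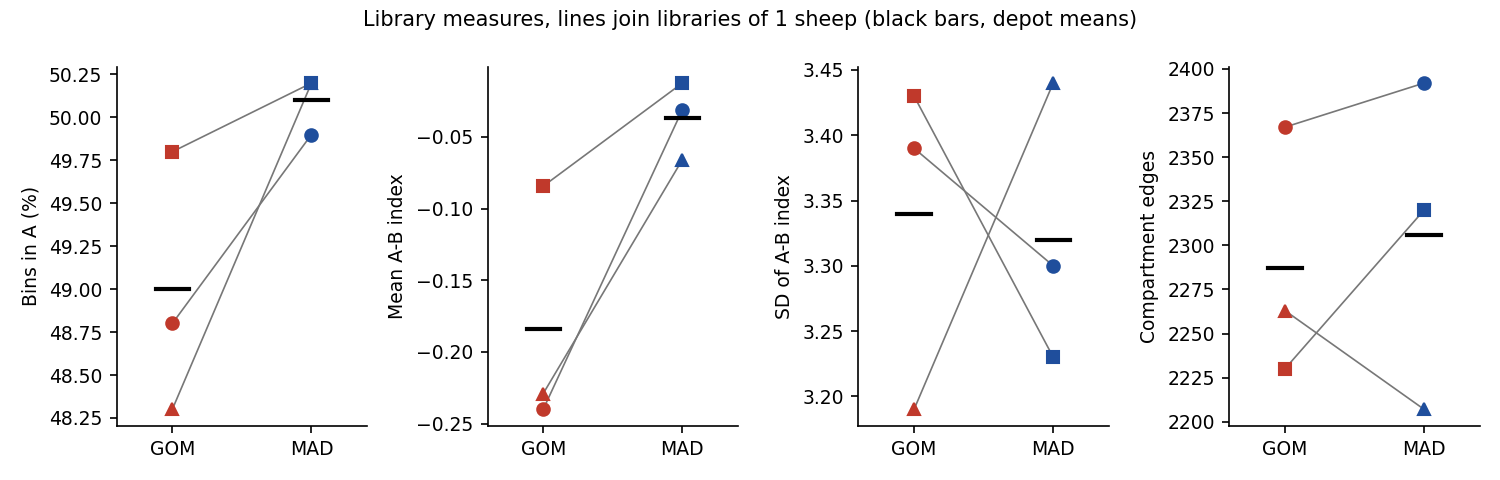
Percentage of bins in A, mean A-B index, SD of the index and number of compartment edges at 100 kb in the 3 GOM (red) and 3 MAD (blue) libraries, with lines joining the libraries of 1 animal and black bars for depot means; the vertical axes do not start at 0. GOM lies below MAD in each animal for bins in A (means 49 and 50.1%) and for the mean index, while the lines cross for the SD and the edges.

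In windows of 100 kb, a limma model with a variance trend was fitted to the 9 sheep libraries with depot and animal as terms. GOM and MAD differed in 3512 of 26549 windows (13.2%, 351.2 Mb) at an adjusted *p* under 0.05. Of these, 1135 (4.28%) were higher and 2377 (8.95%) lower in GOM. The imbalance was found on the scale of the deposited index, on which the median difference over all windows was -0.154, and not on other scales. After quantile normalization the numbers were 2023 higher and 2052 lower (4075 windows, 3151 of them shared with the 3512), after centring and scaling each library 1955 and 1905, and after subtraction of each chromosome's mean 1713 and 1702. Without chromosome 14 in the fit, 3191 of 25838 windows (12.4%) differed, 934 (3.61%) higher and 2257 (8.74%) lower in GOM, or 1802 and 1953 after quantile normalization.

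The called windows differed by a median of 1.12 index units in absolute value (quartiles 0.958 and 1.39), with a median standard error of 0.279. Windows that were not called had a median absolute difference of 0.284. The same direction was found in all 3 animals in 3465 of the 3512, which the selection favours. Without regard to the fit, the groups did not overlap in 7652 windows (28.8%). The 3 GOM libraries lay entirely above the 3 MAD libraries in 2277 windows (8.58%) and entirely below in 5375 (20.2%). Of single 20-kb bins, limma gave 0 of 132797 at the adjusted threshold (lowest adjusted *p* = 0.137) and 21915 (16.5%) at an unadjusted *p* under 0.05. At the adjusted threshold, 461 bins passed after quantile normalization and 1069 after centring and scaling.

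How many windows pass rests strongly on single libraries. GOM replicate 1 weighed most: without it 1167 windows passed, and 779 when chromosome 14 was left out. Without MAD replicates 1, 2 and 3, the numbers were 1618, 1855 and 1845. Without GOM replicate 3, 4831 windows passed. A core of 887 windows was called in the same direction in all 14 of the fits compared, which were those with the index as deposited, under 3 other scalings, without the animal term and without each of the 9 libraries in turn. Of this core, 311 were higher and 576 lower in GOM, and 686 lay outside chromosome 14 (197 higher and 489 lower). Most of the 14 fits used the deposited index, and each core window had to pass on it. How far the excess of lower windows in the core goes with the shift of that scale was not tested. In the study's sequencing summary every MAD library had fewer valid contacts and a larger share of contacts between chromosomes than every GOM library. As this follows depot in every library, its part in the counts cannot be told apart from that of depot and was not tested.

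The 3 animals differed in how far their depots parted. In sheep 1, 5.97% of windows were higher in GOM by at least 1 index unit and 13.4% lower by as much. In sheep 2 these were 5.39 and 8.02%, and in sheep 3 they were 3.48 and 8.74%. Sheep 1 thus had the most windows lower in GOM on the deposited scale, on which all counts by animal were made. Its mean difference on that scale was -0.208, against -0.0718 in sheep 2 and -0.163 in sheep 3. A cut at 1 unit does not remove this shift. A difference of at least 1 unit in all 3 animals was found in 271 windows (1.02%) higher and 488 (1.84%) lower in GOM, and outside chromosome 14 in 162 (0.627%) and 425 (1.64%). Outside chromosome 14, the Pearson's *r* of the GOM minus MAD differences over 25838 windows was 0.601 between sheep 1 and 2, 0.492 between sheep 1 and 3 and 0.207 between sheep 2 and 3. These are descriptions over windows that share contacts with their neighbours. Sheep 2 and 3 were least alike there, whereas on chromosome 14 they were the closest pair, with an *r* of 0.906 over 711 windows.

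Most called windows stayed in their compartment. By depot means, 1234 were A in both depots (439 higher, 1.65% of all windows, and 795 lower in GOM, 2.99%), which is 4.65% of all windows. Another 1594 (6%) were B in both (455 higher, 1.71%, and 1139 lower in GOM, 4.29%). In 684 (2.58% of all windows) the means lay on opposite sides of 0, with GOM in A and MAD in B in 241 (0.908%) and GOM in B and MAD in A in 443 (1.67%). After quantile normalization these were 339 and 376. All 3 GOM libraries were A and all 3 MAD libraries B in 102 called windows (0.384%), and the reverse held in 189 (0.712%). Called or not, the numbers were 135 (0.508%) and 230 (0.866%). Complete switches therefore made up a small part of the differences. Without GOM replicate 1, the means were opposite in 322 called windows.

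Called windows were more frequent at middle values of the index than at its extremes. To avoid sorting windows by the depots compared, they were sorted by the mean index of RAD, which entered the same fit. Outside chromosome 14, windows with a RAD index of -1 to 1 were called higher in GOM in 6.79% and lower in GOM in 12.2%. From -3 to -1 these were 4.59 and 11.9%, and from 1 to 3 they were 4.17 and 8.2%. Windows lower in GOM were thus almost as frequent from -3 to -1 as from -1 to 1. At a RAD index under -5 the percentages were 0.571 and 5.26%, and at a RAD index over 5 they were 1.12 and 2.13%. The extremes of both compartments thus held fewer called windows than the middle. Quantile normalization kept this shape, with 10.8% in each direction from -1 to 1, 2.58 and 4.23% under -5 and 2.72 and 2.42% over 5. The median standard error of a window was 0.263 from -1 to 1, 0.299 under -5 and 0.284 over 5, and the median absolute difference was 0.364, 0.342 and 0.307, so both measures moved a little with the class. Distances to edges of the RAD compartments were taken over all chromosomes, chromosome 14 included. Windows higher in GOM touched such an edge in 22.9% and windows lower in GOM in 17.2%, against 14.9% of windows that were not called. The median distance to such an edge was 350, 450 and 550 kb for these 3 sets.

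**Figure D2:**
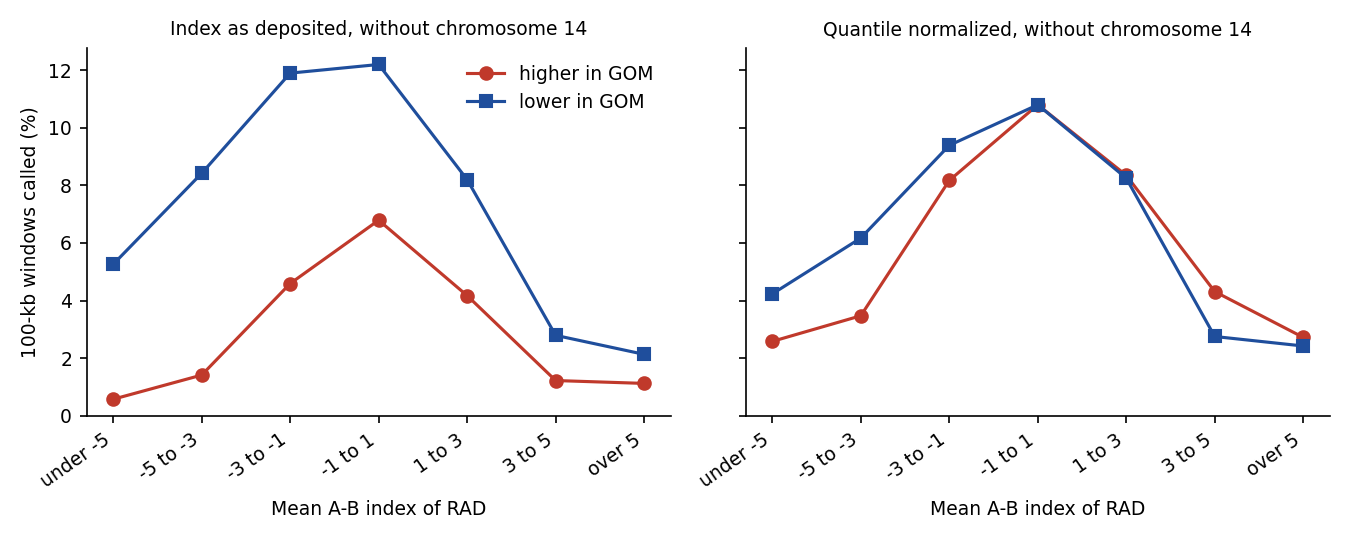
Percentage of 100-kb windows called higher (red) or lower (blue) in GOM than in MAD, by the mean A-B index of RAD, for the index as deposited (left) and after quantile normalization (right), without the windows of chromosome 14. Both curves peak in the middle classes, at 6.79 and 12.2% for a RAD index of -1 to 1 on the left and 10.8% each on the right.

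RAD was nearer to GOM than to MAD at most called windows, most clearly at those lower in GOM. The mean of RAD lay on the GOM side of the MAD mean in 3449 of the 3512, a count made for called windows only. It was nearer to GOM in 717 of 1135 windows higher in GOM (63.2%) and in 2101 of 2377 lower in GOM (88.4%), or in 73.7 and 77.3% after quantile normalization. Among windows that were not called the share was 60.2%, or 55.6% after quantile normalization. Outside chromosome 14 the shares were 55.4% of windows higher and 87.8% of windows lower in GOM. On the deposited scale and over all chromosomes, windows higher in GOM were thus close to windows that were not called (63.2 and 60.2%). The share for windows not called was not counted without chromosome 14. On a scale from 0 at MAD to 1 at GOM, the median position of RAD outside chromosome 14 was 0.548 at windows higher and 0.862 at windows lower in GOM. After quantile normalization these were 0.656 and 0.75 (70.2 and 76% of windows nearer to GOM), so most of the gap between the directions went with the scale. The called windows were chosen for a difference between GOM and MAD, so these positions are descriptions.

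Chromosome 14 stood apart from all other chromosomes. Of its 711 windows, 383 (53.9%) were called, 220 (30.9%) higher and 163 (22.9%) lower in GOM, or 35.7 and 21.1% after quantile normalization. On the other 25 chromosomes, 6.43 to 20.6% of windows were called (median 12.3%). The SD of the difference over windows was 1.52 on chromosome 14 and 0.45 to 0.69 on the others. On the deposited scale it was also the single chromosome whose mean index was higher in GOM in all 3 animals, by 0.128, 0.387 and 0.115. The mean index was lower in GOM in all 3 animals on 20 chromosomes, a count that follows the overall shift of the deposited index. The share called on chromosome 14 was 45.7% without GOM replicate 1 and 32.2% without MAD replicate 2, and 24.5% without sheep 2. A and B regions were set per library and chromosome, so all windows of a chromosome are scored against the same regions. The 383 called windows are therefore not separate differences. Whether the coarse regions of chromosome 14 differed between libraries was not tested.

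**Figure D3:**
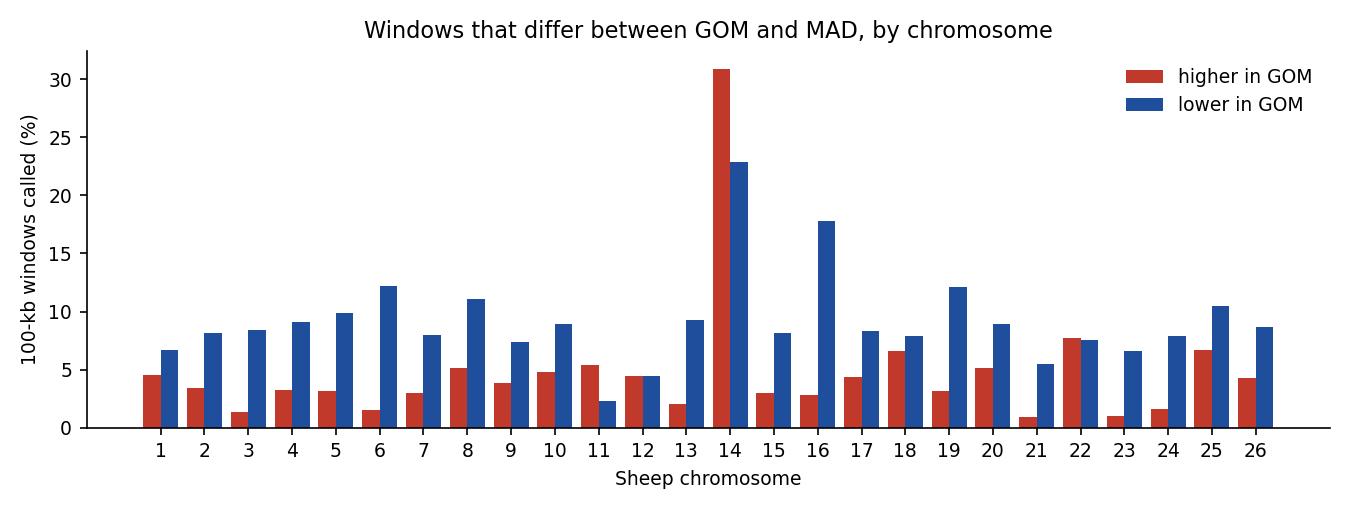
Percentage of tested 100-kb windows called higher (red) or lower (blue) in GOM than in MAD on each of the 26 sheep autosomes, at an adjusted p under 0.05 for the index as deposited. Chromosome 14 reaches 30.9 and 22.9%, and chromosome 16 has the next highest total, 2.81% higher and 17.8% lower, or 7.92 and 8.3% once chromosome means are subtracted.

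The MAD libraries were not alike on chromosome 14. MAD replicates 2 and 3 had a Pearson's *r* of 0.992 over its 711 windows, but MAD replicate 1 had 0.968 and 0.958 with them and 0.986 with GOM replicate 3. GOM replicates 1 and 2 had the lowest values with MAD replicates 2 and 3, between 0.868 and 0.911. MAD replicate 1 thus lay between the GOM libraries and the other MAD libraries on this chromosome. Likewise, the SD of the difference was 1.02 in sheep 1, 2.33 in sheep 2 and 1.5 in sheep 3. Of the windows of chromosome 14, 18.3, 40.8 and 26.9% were higher in GOM by at least 1 unit in sheep 1, 2 and 3.

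The departures on chromosome 14 were gathered in blocks with opposite directions. From 50000001 to 60000000, 87 of 100 windows were higher and 0 lower in GOM. The mean index there was 1.38, 1.29 and 0.296 in GOM, against 0.118, -1.07 and -1.2 in MAD and 0.903, 0.651 and 0.836 in RAD. All GOM and RAD libraries were on the A side, and MAD replicates 2 and 3 on the B side. From 30000001 to 40000000, 52 of 100 windows were lower and 18 higher in GOM, with a mean index of -1.37, -1.68 and -1.01 in GOM, against -1.14, -0.868 and -0.6 in MAD. In the segment before it, from 20000001 to 30000000, 40 windows were lower and 10 higher in GOM, and the mean index was -0.0491, -0.167 and 0.305 in GOM, against 0.314, 0.791 and 1.08 in MAD. Over this segment GOM replicate 3 and MAD replicate 1 almost met. In the last 11 windows, from 70000001 to 71100000, all were higher in GOM, at -2.16, -1.6 and -3.47 in GOM, against -3.36, -5.63 and -5.75 in MAD. There GOM replicate 3 lay below MAD replicate 1, so the groups overlapped while each animal kept the direction.

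**Figure D4:**
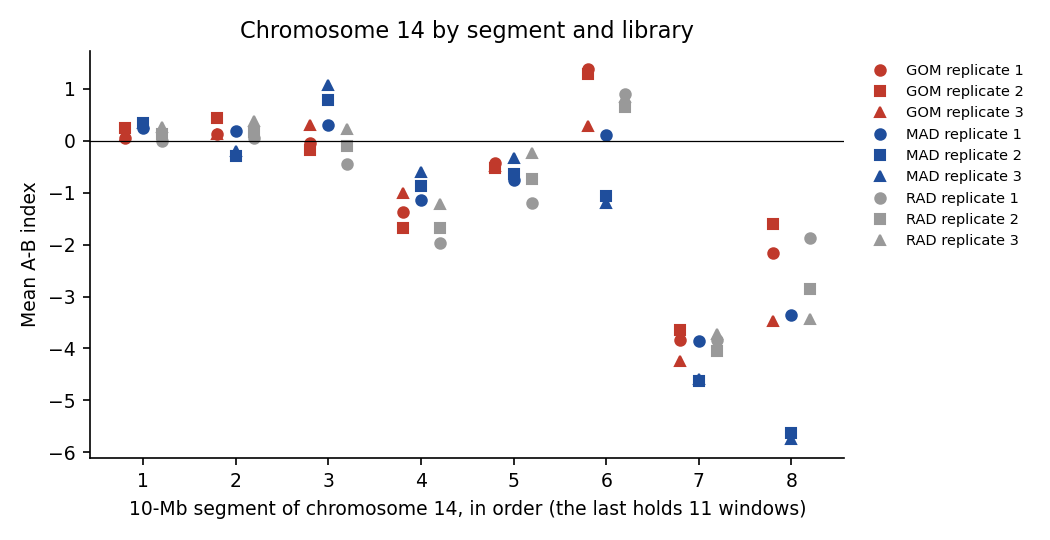
Mean A-B index of each GOM (red), MAD (blue) and RAD (grey) library over consecutive 10-Mb segments of chromosome 14, with replicates 1, 2 and 3 as circles, squares and triangles; the last segment holds 11 windows. In the sixth segment GOM lies at 0.296 to 1.38 and MAD at -1.2 to 0.118, and MAD replicate 1 is the MAD library nearest to GOM.

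Neighbouring called windows joined into runs. Windows higher in GOM formed 496 runs, of which 286 were single windows, 119 had at least 3 windows and 11 had at least 10. Windows lower in GOM formed 914 runs, of which 468 were single, 271 had at least 3 windows and 36 had at least 10. Outside chromosome 14, runs of at least 10 windows numbered 4 higher and 31 lower in GOM. This imbalance depended on the scale, because quantile normalization gave 13 and 25. The runs named below were chosen by length or by the size of their difference, so their values describe them and are no test. Adjusted *p* values are those of single windows from limma with Benjamini-Hochberg adjustment. Positions are those of Oar_rambouillet_v1.0.

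On chromosome 14 the longest run higher in GOM spanned 3.2 Mb, from 48900001 to 52100000. Its index was -0.394, -0.366 and -2.12 in GOM, against -2.33, -4.06 and -4.17 in MAD and -1.18, -1.68 and -1.61 in RAD. All libraries were on the B side, and GOM was nearer to 0. The mean difference was 2.56, with window adjusted *p* values of 2.16e-05 to 0.0166. GOM replicate 3 and MAD replicate 1 were only a little apart, which the depot means do not show. From 57700001 to 60600000 the index was 2.21, 2.01 and 1.13 in GOM, against 0.877, -0.207 and -0.26 in MAD. GOM was firmly A there, while MAD lay at either side of 0. The run from 14000001 to 15600000 was A in all libraries, at 3.14, 3.45 and 2.55 in GOM, against 2.31, 1.29 and 1.3 in MAD.

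The run from 69400001 to 71100000, near the end of the chromosome as tested, was deep in B, with a mean of -2.6 ± 0.924 in GOM and -4.86 ± 1.3 in MAD (SD, *n* = 3), and it was the single one of the longest runs in which the groups overlapped. Toward lower values in GOM, the longest run of chromosome 14, which on the deposited scale was also the longest of all chromosomes, spanned 2.6 Mb, from 30600001 to 33200000. Its index was -2.88, -3.49 and -2.2 in GOM, against -1.95, -0.838 and -0.551 in MAD. Both depots were B there, MAD more weakly so. From 20700001 to 23000000 the index was -2.14, -2.46 and -1.4 in GOM, against -0.897, 0.629 and 0.912 in MAD. GOM was B in each library and MAD crossed 0 between its replicates.

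Outside chromosome 14, the longest run higher in GOM on the deposited scale spanned 1.7 Mb, on chromosome 25 from 15600001 to 17300000. Run lengths depend on the scale: after quantile normalization the longest runs outside chromosome 14 spanned 3.6 Mb higher and 1.7 Mb lower in GOM. Its index was -1.11, -2.05 and -1.22 in GOM, against -2.55, -3.09 and -2.91 in MAD and -2.28, -3.06 and -1.93 in RAD. The difference was 1.39, the same way in each animal (1.45, 1.04 and 1.69), and RAD replicate 2 lay within the range of MAD, replicate 3 within that of GOM and replicate 1 between them. This run belongs to a broader segment, since 41 of the 100 windows from 10000001 to 20000000 of chromosome 25 were called, 32 higher and 9 lower in GOM. On chromosome 9, from 40500001 to 41800000, the index was 0.162, -0.466 and -0.376 in GOM, against -1.73, -1.81 and -1.74 in MAD. GOM lay close to the compartment border and MAD, whose libraries differed little among themselves, lay in B. RAD replicates 1 and 2 were nearer to MAD, at -1.66 and -1.41, and replicate 3 was nearer to GOM, at -0.701.

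On chromosome 8, from 15200001 to 16500000, the index was -1.5, -1.81 and -1.87 in GOM, against -3.15, -2.68 and -3.13 in MAD. On chromosome 10, from 79600001 to 80600000, it was 0.224, -0.256 and -0.86 in GOM, against -1.49, -1.28 and -1.98 in MAD. GOM was thus less strongly B than MAD on chromosome 8, with a difference of 1.26. On chromosome 10 the GOM libraries lay at either side of 0 and all MAD libraries in B, with a difference of 1.29. On chromosome 1, from 116300001 to 117200000, all GOM libraries were A, at 1.07, 0.239 and 0.9, and all MAD libraries were B, at -0.673, -0.589 and -0.338. This run lies in the 10 Mb from 110000001 to 120000000 of chromosome 1, where 38 windows were higher and 4 lower in GOM. The share of called windows there, 42%, compares with a median of 11% over the 259 segments outside chromosome 14.

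In the other direction, the longest run outside chromosome 14 on the deposited scale spanned 2.3 Mb on chromosome 6, from 54000001 to 56300000. Its index was -3.53, -3.28 and -2.78 in GOM, against -1.87, -1.97 and -2.06 in MAD and -2.6, -3.06 and -3.14 in RAD. The region was B throughout and deeper in B in GOM, with differences of -1.66, -1.31 and -0.719 in sheep 1, 2 and 3. A run on chromosome 26, from 33200001 to 34800000, had the same form, with -4.01, -3.38 and -3.4 in GOM, against -2.27, -2.2 and -2.39 in MAD.

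On chromosome 10, from 75400001 to 77100000, GOM was B and MAD was near 0. The index was -2.26, -2.11 and -1.92 in GOM, against 0.0978, -0.199 and -0.409 in MAD and -1.58, -1.77 and -2.22 in RAD. The difference was -1.93, with window adjusted *p* values of 3.93e-05 to 0.00668. In the last 0.6 Mb of it, from 76500001 to 77100000, every MAD library was A, at 0.781, 0.595 and 0.397, and every GOM library B, at -1.58, -1.14 and -1.45. On chromosome 2, from 173400001 to 175000000, the index was -1, -1.15 and -0.794 in GOM, against 0.673, -0.032 and 0.3 in MAD. RAD was at -0.448, -1.11 and -1.37 there, on the GOM side of 0.

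**Figure D5:**
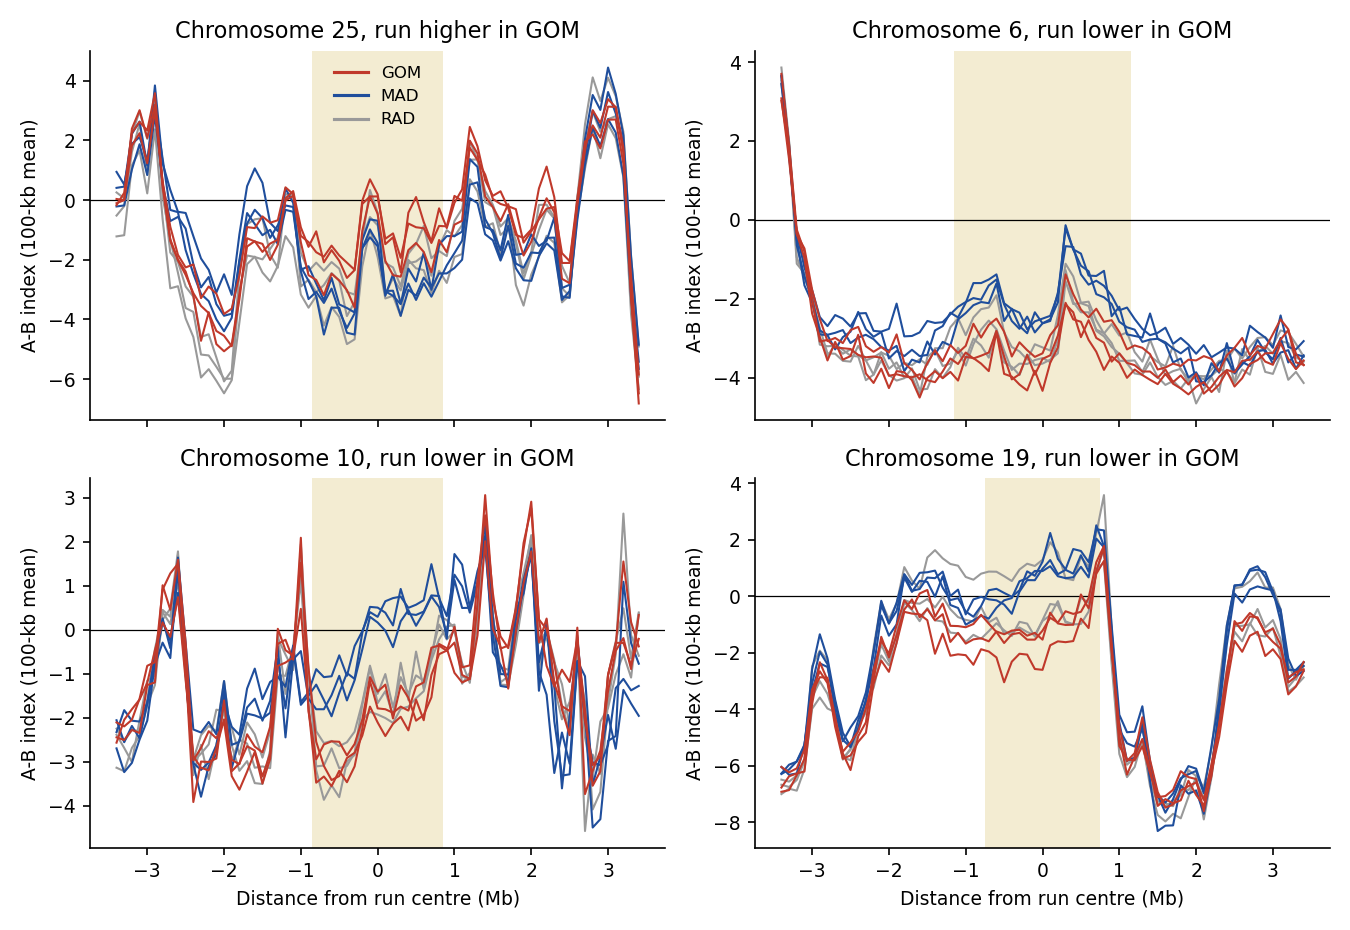
A-B index of 100-kb windows in each GOM (red), MAD (blue) and RAD (grey) library within 3.5 Mb of the centre of 4 of the longest runs outside chromosome 14; shading marks the run. The run of chromosome 25 is higher in GOM by 1.39, and those of chromosomes 6, 10 and 19 are lower in GOM, by 1.23, 1.93 and 1.92 on average; on chromosome 19 a single RAD library follows MAD.

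Several regions of chromosome 19 were A in MAD but B in GOM by the mean of each library over the region. From 37800001 to 39300000 the index was -1.76, -0.876 and -0.934 in GOM, against 0.997, 0.647 and 0.556 in MAD. Not every window of this run crossed 0 in all libraries. From 38200001 to 39000000, 0.8 Mb, each window was B in all GOM libraries and A in all MAD libraries. Over the whole run the difference was -1.92, and -1.26 without GOM replicate 1. RAD was split, at 1.12 in replicate 1 and -0.736 and -0.808 in replicates 2 and 3, so that RAD replicate 1 lay with MAD. From 4000001 to 4700000 the index was -1.53, -1.14 and -0.762 in GOM, against 2.1, 1.28 and 1.24 in MAD, and again RAD replicate 1 was A, at 0.881, while RAD replicates 2 and 3 were B, at -1.04 and -1.32. A shorter region from 41200001 to 41600000 had -1.67, -0.956 and -1.1 in GOM, against 0.713, 0.265 and 0.681 in MAD, and RAD at 0.496, -0.853 and -1.22. Sheep 1, whose RAD was A in these 3 regions, had the largest difference between GOM and MAD in them, -2.76, -3.62 and -2.38. This was not particular to them. It also had the largest difference in the runs of chromosomes 6 and 26, -1.66 and -1.74, where its RAD was B. In the run of chromosome 25, sheep 3 had the largest, 1.69. A switch on chromosome 24, from 40500001 to 41000000, had all RAD libraries with GOM: -0.483, -1.03 and -0.694 in GOM, 0.479, 0.465 and 0.295 in MAD, and -0.309, -0.869 and -0.725 in RAD.

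Runs were also formed from called windows that were each A in all 3 GOM libraries and B in all 3 MAD libraries, a stricter rule than the mean over a run. Outside chromosome 14 the longest of these had 6 windows, on chromosome 1 from 118400001 to 119000000, with 1.4, 0.772 and 0.569 in GOM, against -1.29, -0.611 and -0.941 in MAD. Its RAD libraries were at -0.439, 0.652 and 0.867, and again replicate 1 was with MAD. The next, on chromosome 8 from 10100001 to 10500000, had 1.53, 0.46 and 0.942 in GOM, against -0.245, -0.305 and -0.492 in MAD, and its RAD replicates 1 and 2 were B at -0.913 and -0.706. The other 3 spanned 0.3 Mb each. On chromosome 18, from 15100001 to 15400000, the difference was 1.44, and on chromosome 16, from 20800001 to 21100000, it was 1.19. It was 1.09 on chromosome 2, from 138600001 to 138900000. In the last, GOM was only slightly A, at 0.352, 0.439 and 0.15, against -1.04, -0.288 and -0.988 in MAD.

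The single windows with the largest differences outside chromosome 14 lay on few chromosomes. Of the 5 largest in each direction, 3 of those higher in GOM were on chromosome 10 and all of those lower in GOM on chromosome 19. The largest positive one, on chromosome 10 from 80800001 to 80900000, had 1.95, 1.26 and 2.98 in GOM, against -1.72, -1.05 and -0.0994 in MAD (difference 3.02, SE 0.294, limma adjusted *p* = 1.35e-05). The next, from 75200001 to 75300000, had 1.52, 0.473 and 2.09 in GOM, against -1.65, -1.71 and -0.488 in MAD, and lies 0.1 Mb before the run of chromosome 10 that is lower in GOM. Opposite differences thus stood side by side there. In the 10 Mb from 70000001 to 80000000 of chromosome 10, 14 windows were higher and 25 lower in GOM. The other window of chromosome 10, from 71400001 to 71500000, had differences of 4.6, 0.274 and 2.62 in the 3 animals, and its mean difference of 2.5 was 1.58 without GOM replicate 1.

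The largest negative difference, on chromosome 19 from 1000001 to 1100000, had -4.54, -4.34 and -3.37 in GOM, against -1, -1.87 and 0.118 in MAD and -3.76, -4.19 and -3.09 in RAD (difference -3.17, SE 0.277, limma adjusted *p* = 1e-05). GOM and RAD were deep in B, and the MAD libraries were spread from B to the border. The other 4 windows lower in GOM all lay in the region from 4000001 to 4700000 given above, with differences of -3.08 to -2.88. Of the windows higher in GOM, that on chromosome 24 from 22200001 to 22300000 was B in both depots, at -1.18, -1.62 and -2.04 in GOM, against -4.04, -4.05 and -3.87 in MAD. That on chromosome 25 from 16900001 to 17000000, inside the run described above, had 0.0995, -1.44 and -0.913 in GOM, against -2.73, -3.21 and -3.35 in MAD.

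On the deposited scale, chromosome 16 came after chromosome 14 in its share of called windows, but not on each other scale: chromosome 18 had 22.6% after quantile normalization, and chromosomes 22 and 19 had 17.3 and 16.9% after subtraction of chromosome means. Of its 783 windows, 161 (20.6%) were called, 22 higher and 139 lower in GOM, and its mean index differed by -0.362, -0.351 and -0.328 in the 3 animals. On the deposited scale the shift was thus nearly the same in each sheep. It includes each animal's mean difference over all windows, which was not alike, at -0.208, -0.0718 and -0.163 in sheep 1 to 3. The share was 22.1% after quantile normalization (5.62% higher and 16.5% lower in GOM) and 7.66% without GOM replicate 1. After subtraction of each chromosome's mean it was 16.2%, with 7.92% higher and 8.3% lower in GOM, a balance that this subtraction favours by construction. At its end, from 70000001 to 78300000, 37 of 83 windows (44.6%) were called and all of them were lower in GOM on the deposited scale. In contrast, chromosome 21 had 34 of 529 windows called (6.43%) and chromosome 23 had 52 of 683 (7.61%). Chromosome 11 had 33 windows higher and 14 lower in GOM (5.42 and 2.3%), or 9.36 and 1.15% after quantile normalization.

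The edges of runs were set against the borders of topologically associating domains (TADs), the blocks of preferred contact called by their insulation on maps merged over animals. The merged map of GOM had 4387 TADs with a median length of 480 kb, and that of MAD had 4166 with a median of 500 kb. Of the 780 edges of runs with at least 3 windows, 181 (23.2%) lay within 40 kb of a boundary of either map, as did 4198 of all 26549 window edges (15.8%). The share was 28.2% for runs higher and 21% for runs lower in GOM. With tolerances of 20 and 100 kb, the shares were 14.1 and 46.4% of run edges, beside 8.93 and 36.3% of all edges. Run edges thus lay at TAD boundaries more often than window edges in general at each tolerance, but most lay elsewhere. Called windows held fewer boundaries than windows that were not called. In the GOM map there were 1.5 boundaries per Mb in windows higher in GOM, 1.25 in windows lower in GOM and 1.75 in windows not called, and in the MAD map 1.58, 1.11 and 1.65. After quantile normalization the GOM map had 1.47, 1.15 and 1.76. As each map has no replicate, these shares were not tested.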

How the data were processed

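The sheep Hi-C libraries of GOM, MAD and RAD (3 each) were grouped by their labels. The A-B index deposited by the authors is a score with a sign, given for each library and bin of 20 kb, with no read depth. Reads had been aligned with BWA and filtered in Juicer, A and B regions had been set per library and chromosome from a principal component at 100 kb oriented by gene density, and TADs, deposited as positions, had been called on merged maps. Contact matrices and RNA-seq were not used here. Genes were not placed, since no annotation of Oar_rambouillet_v1.0 was used.

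The index was averaged over 5 bins and tested with limma 3.58.1 in R 4.3.3 (variance trend, depot and animal as terms, 9 libraries, 4 residual degrees of freedom, Benjamini-Hochberg threshold 0.05). The fit added 15.5 prior degrees of freedom, which are borrowed across windows of the same libraries. Single values were compared by exact permutation. Same-numbered libraries come from the same sheep by their labels. Their deviations from the GOM and MAD means correlated at 0.222, 0.0466 and -0.0126 in sheep 1 to 3, and those of different sheep at -0.155 to 0.0985. Python 3.11.15 (numpy 2.4.6, pandas 2.3.3, matplotlib 3.10.9) was used for counts, overlaps and figures. Regions named were the 5 longest runs per direction over all chromosomes and outside chromosome 14, the 5 longest across 0 and the 5 largest windows per direction outside chromosome 14. Windows, rules and alternatives were chosen with earlier results of these data known. Alternatives covered the block, scaling, window size, variance model, thresholds, chromosome 14 and leaving out each library or animal.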

Additional observations from a re-analysis of the deposited data

How the results depend on the processing

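Quantile normalization, centring and scaling, subtraction of chromosome means, limiting of extreme bins, partial windows, other variance models and the fits of GOM and MAD alone left the number of called windows within 1.5 times 3512. Without the replicate block, that is without pairing by animal, 2533 windows were called (810 higher and 1723 lower in GOM, 548 across 0), and 2263 outside chromosome 14. The median of 5 bins gave 1397 windows, 382 of them across 0, an adjusted *p* of 0.01 gave 1593, and 500-kb windows gave 1008 of 5299, a smaller number of windows by construction. Leaving out 1 library or animal gave 1167 to 4831 windows (779 to 4661 outside chromosome 14) and 322 to 835 across 0. With quantile normalization and without GOM replicate 1, chosen after seeing the data like all alternatives outside chromosome 14, 1878 windows were called. For 20-kb bins, 0 were called except after quantile normalization (461) and centring and scaling (1069). The cause of these changes was not tested. The difference in SD of the index was -0.0757 to 0.145 and that in compartment edges -57.5 to 15.5 when an animal was left out, so neither kept its sign. Run edges near TAD boundaries were 14.1 and 46.4% at 20 and 100 kb. None of the 40 entries of named regions (36 distinct regions) changed sign in 640 values under alternatives, of which 4 moved by more than 1 SD. The regions were chosen by length or size in these data and the alternatives reuse the same libraries, so a kept sign was favoured in advance. Depth per library entered no fit, and 3 animals limit each comparison of single values to the smallest *p* values given.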
